A study of Mus musculus with 6 samples.

Results

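Immunoglobulin constant regions are the parts of antibody heavy and light chains that do not recognise antigen but fix the class of the antibody. The 10 genes described here are 7 heavy chain constant genes (Ighm, Ighd, Ighg1, Ighg2b, Ighg2c, Ighg3 and Igha), the kappa and lambda light chain constants Igkc and Iglc2, and Jchain. They were chosen by symbol through their Ensembl identifiers, and all 10 were found among the 31771 genes of the table. RNA from spleen pieces of 6 mice labelled C57BL/6 was sequenced. The 3 mutants carried VEC-Cre, SB Transposase and onc2, and the 3 controls were labelled WT. In the mutants Cre recombinase was driven by the VE-cadherin promoter, which is active in endothelium and, from the embryo on, in the endothelium that gives rise to blood cells. The Sleeping Beauty (SB) transposase moves the onc2 transposon to new places in the genome, so that each mutant animal can carry its own insertions. The series was made to compare the cellular composition of the spleens, and the labels give no age.

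Each library held 72902118 to 79258116 counts over 24607 to 25804 genes with a count. CPM stands for a gene's counts per 1000000 counts of its library. Differences are log2 fold changes of mutant over control with SE from edgeR's quasi-likelihood test, called at a Benjamini-Hochberg adjusted p under 0.05 over 19573 genes. The biological coefficient of variation over all genes was 72.8% among mutants and 17.1% among controls. Mutants 1 and 2 had 1513 and 580 CPM of Xist, which female cells express, while mutant 3 had 0.586 CPM and the controls 0.423 to 0.663 CPM, so that sex and genotype cannot be told apart for mutants 1 and 2, and mutant 3 is the one that matched the controls. In pieces of whole spleen, fewer cells of a type and less RNA per cell cannot be told apart.

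A B cell first makes Ighm, and mature naive B cells splice the same primary transcript to Ighm or Ighd. Activated B cells can cut out the DNA between Ighm and a constant gene further along, a process called class switching, so that the same variable region is joined to an IgG, IgE or IgA constant region. Plasma cells then transcribe these genes at very high levels and secrete the antibody, and Jchain makes the small protein that links IgM and IgA units into polymers. In the mouse most antibodies carry a kappa light chain and a minority a lambda chain.

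The 7 heavy chain genes lie on the minus strand of chromosome 12, on GRCm38 by the GENCODE M21 annotation, in the order of switching. Ighm (ENSMUSG00000076617) spans 113418558 to 113422730 and Ighd (ENSMUSG00000104213) 113406604 to 113416324. The IgG genes follow with Ighg3 (ENSMUSG00000076615) at 113356224 to 113361232, Ighg1 (ENSMUSG00000076614) at 113325240 to 113330523, Ighg2b (ENSMUSG00000076613) at 113302965 to 113307933 and Ighg2c (ENSMUSG00000076612) at 113285325 to 113288932. Igha (ENSMUSG00000095079) is the last, at 113254830 to 113260236. Igkc (ENSMUSG00000076609) lies on chromosome 6 at 70726435 to 70726966, Iglc2 (ENSMUSG00000076937) on chromosome 16 at 19198396 to 19200351 and Jchain (ENSMUSG00000067149) on chromosome 5 at 88519809 to 88527891. The counts are per gene over its exons, so secreted and membrane forms were not told apart.

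The ends of the secreted coding regions show which heavy chains can take up the J chain. The last 60 coding bases before the stop codon are given 5′ to 3′ from the GENCODE M21 transcripts on GRCm38, all from the minus strand, with in-frame cysteine codons in capitals.
Ighm, chr12:113420870-113420929: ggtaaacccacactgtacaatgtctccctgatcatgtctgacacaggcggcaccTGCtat
Igha, chr12:113258771-113258830: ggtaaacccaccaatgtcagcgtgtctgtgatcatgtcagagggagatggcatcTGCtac
Ighg2b, chr12:113306392-113306451: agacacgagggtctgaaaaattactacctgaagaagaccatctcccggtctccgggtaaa
Ighg2c, chr12:113287392-113287451: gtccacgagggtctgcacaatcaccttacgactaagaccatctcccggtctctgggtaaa
Ighm and Igha each hold 1 cysteine codon in this stretch, next to the last codon, which is the residue through which IgM and IgA are linked to the J chain. Ighg2b and Ighg2c hold 0 there.

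The lambda constant genes are shown because they differed from each other in mutant 2 and because near-identical copies can share reads. The first 90 coding bases are given from the same source, with capitals at the 21 positions where the 3 genes are not all the same.
Iglc1, chr16:19061982-19062071: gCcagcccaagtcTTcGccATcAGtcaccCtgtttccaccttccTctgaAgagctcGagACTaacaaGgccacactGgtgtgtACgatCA
Iglc2, chr16:19198763-19198852: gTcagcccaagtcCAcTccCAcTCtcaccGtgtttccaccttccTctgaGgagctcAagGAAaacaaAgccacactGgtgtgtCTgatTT
Iglc3, chr16:19065592-19065681: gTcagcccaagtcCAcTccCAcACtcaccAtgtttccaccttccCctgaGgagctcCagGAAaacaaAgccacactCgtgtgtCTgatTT
Over the whole coding part Iglc2 and Iglc3 were 96.2% identical and had 14.3% of their 50-base words in common, so their counts are uncertain against each other. Iglc1 was 73.4% identical to Iglc2 and had 0 such words in common with it. Among the IgG genes Ighg2b and Ighg2c were the closest, at 85.7% identity with 56 shared words, 5.85% of those of Ighg2b and 5.86% of those of Ighg2c. The other IgG pairs were 74.1% to 76.3% identical with 0 shared words.

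All 10 genes were lower in the mutant spleens than in any control. Together they took 0.113%, 0.686% and 0.205% of all counts in mutants 1, 2 and 3, against 2.77%, 2.41% and 2.36% in controls 1, 2 and 3. Of the 10, 6 fell past the threshold (Ighd, Ighg2b, Ighg2c, Ighg3, Igkc and Iglc2), and 4 did not pass (Ighm, Ighg1, Igha and Jchain). Over all genes tested 6.9% were called lower and 5.08% higher, and in 22.6% every mutant lay below every control. The median log2 fold change was -3.30 over the 10 genes and 0.10 over all genes tested. With upper-quartile factors these medians were -3.40 and 0.00. Of the 4 that did not pass, Ighg1, Igha and Jchain had unadjusted p-values of 0.00950, 0.0124 and 0.00920 and Ighm of 0.0686 in edgeR. The count depended on the libraries and on the tool. Without control 1 or 2 the genes that passed were Ighd and Iglc2, with 0.636% and 0.581% of all genes called lower, and without control 3 they were Ighd, Ighg2b and Iglc2, with 0.627%. Without mutant 2 all but Igha passed, with 15.3% of all genes called lower, while without mutant 1 or 3 the count was 7, with 9.47% and 6.17%. DESeq2 called 9 of the 10 lower (all but Ighm), with 14.4% of all genes, and limma-voom with sample weights 7, with 9.4%. The count stayed at 6 with RLE factors (6.78% of all genes called lower), upper-quartile factors (7.55%), no filter (3.42%), a filter of 1 CPM in 3 libraries (7.88%) and immunoglobulin genes left out of library sizes (6.96%).

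**Figure D1:**
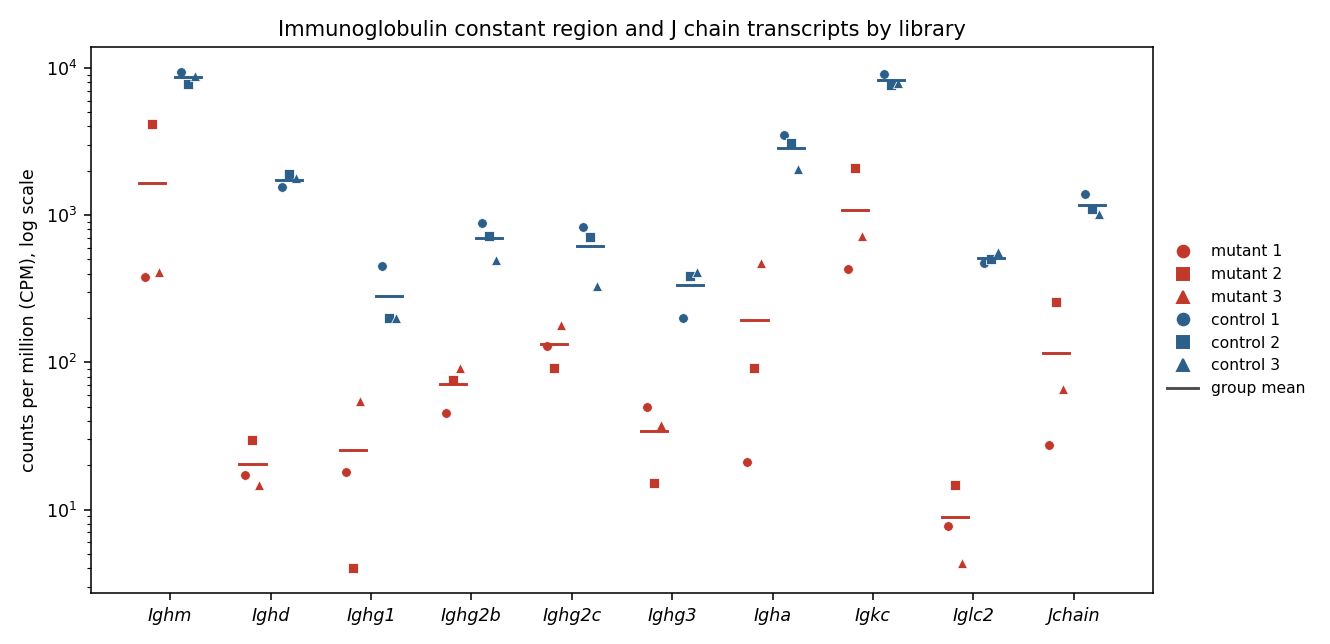
CPM of the 10 genes on a log axis in each library, with mutants left of controls for each gene and a bar at the group mean. Every mutant point lies below every control point of the same gene, with Ighd and Iglc2 the farthest apart and the mutants most spread for Igha, Ighg1 and Ighm.

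Ighd, the constant region of the second receptor class of naive B cells, fell furthest. It stood at 17.1, 29.9 and 14.6 CPM in mutants 1, 2 and 3, against 1553, 1891 and 1789 CPM in controls 1, 2 and 3. The lowest control was 52.0 times the highest mutant, and the mutants lay within 2.05-fold of each other. The log2 fold change was -6.38 ± 0.44 (SE, adjusted p = 0.00214 by edgeR). Ighd passed in all 13 alternative settings, with adjusted p between 1.46e-51 and 0.0208.

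Ighm encodes the heavy chain of IgM, the first class that a B cell makes. It stood at 381, 4187 and 411 CPM in mutants 1, 2 and 3, against 9346, 7825 and 8807 CPM in controls 1, 2 and 3. Mutant 2 reached 48.4% of the control mean, while mutants 1 and 3 reached 4.40% and 4.75%. The fitted log2 fold change of -2.31 ± 1.05 did not pass (SE, adjusted p = 0.192 by edgeR). Without mutant 2 it was -4.48 ± 0.15 (SE, adjusted p = 0.000461 by edgeR), and limma-voom with sample weights on all libraries also called Ighm lower (log2 -3.86, adjusted p = 0.00641).

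The ratio of Ighd to Ighm counts, which library size does not alter, was lower in every mutant than in any control. There was 1 Ighd count for 22.3, 140.02 and 28.1 Ighm counts in mutants 1, 2 and 3, against 1 for 6.02, 4.14 and 4.92 in controls 1, 2 and 3. The log2 ratio averaged -5.47 ± 1.44 in mutants and -2.31 ± 0.27 in controls (SD, n = 3 each, exact 2-sided permutation p = 0.1). With 3 animals against 3 that is the smallest p possible, and adjusted over the 15 shares, ratios and sums computed it was 0.214.

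The IgG genes encode the subclasses made after switching, of which IgG2c is the form that C57BL/6 mice carry in place of IgG2a. Ighg2b stood at 45.6, 75.7 and 91.1 CPM in mutants 1, 2 and 3, against 881, 719 and 492 CPM in controls 1, 2 and 3, and fell by 3.30 ± 0.39 on the log2 scale (SE, adjusted p = 0.00908 by edgeR). Ighg2c stood at 130.02, 92.1 and 178 CPM in mutants 1, 2 and 3, against 828, 706 and 328 CPM in controls 1, 2 and 3. It fell by 2.23 ± 0.43 on the log2 scale (SE, adjusted p = 0.0281 by edgeR), the least of the 6 that passed, and the lowest control was 1.84 times the highest mutant. Reads of these genes could be exchanged over the stretches they share. Their coding parts alone were compared, while the counts cover all exons.

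Ighg3 encodes a subclass that mice make mainly against carbohydrate antigens. It stood at 49.4, 15.1 and 37.5 CPM in mutants 1, 2 and 3, against 199.9, 388 and 411 CPM in controls 1, 2 and 3, and fell by 3.30 ± 0.51 on the log2 scale (SE, adjusted p = 0.0164 by edgeR). Ighg1, the subclass tied to interleukin 4 in mice, stood at 18.0, 3.98 and 54.4 CPM in mutants 1, 2 and 3, against 448, 200.8 and 199 CPM in controls 1, 2 and 3. The mutants spanned 13.7-fold and the controls 2.25-fold, and the log2 fold change of -3.51 ± 0.95 did not pass (SE, adjusted p = 0.0637 by edgeR). Mutant 2, the highest for Ighm, was the lowest mutant for Ighg1, Ighg3 and Ighg2c.

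Igha encodes the heavy chain of IgA, the class of mucosal secretions. It stood at 20.9, 91.1 and 472 CPM in mutants 1, 2 and 3, against 3478, 3098 and 2041 CPM in controls 1, 2 and 3. The mutants spanned 22.6-fold, the widest of the 10 genes, and the controls 1.70-fold. The log2 fold change was -3.91 ± 1.12 and did not pass (SE, adjusted p = 0.0737 by edgeR). Without mutant 1 or mutant 3 it did, with adjusted p = 0.0465 and 0.0327 by edgeR.

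Among heavy chain counts each mutant spleen had its own make-up. IgM made up 57.5%, 93.2% and 32.6% in mutants 1, 2 and 3, against 55.8%, 52.8% and 62.6% in controls 1, 2 and 3. Igha made up 3.16%, 2.03% and 37.5% in mutants 1, 2 and 3, against 20.8%, 20.9% and 14.5% in controls 1, 2 and 3. The 4 IgG genes together made up 36.7%, 4.16% and 28.7% in mutants 1, 2 and 3, against 14.1%, 13.6% and 10.2% in controls 1, 2 and 3. Mutant 1 thus had the largest share of IgG, mutant 2 of IgM and mutant 3 of IgA among the 6 spleens. These are shares of counts, which longer genes gain. Scaled by annotated exon length, 1886 bases for Ighm and 2668 for Igha, Ighm made up 35.9% and Igha 29.2% in mutant 3. Their order there was thus reversed. The coding parts run the other way, at 1364 bases for Ighm and 1031 for Igha. Which of them was higher in mutant 3 therefore depends on the length used.

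**Figure D2:**
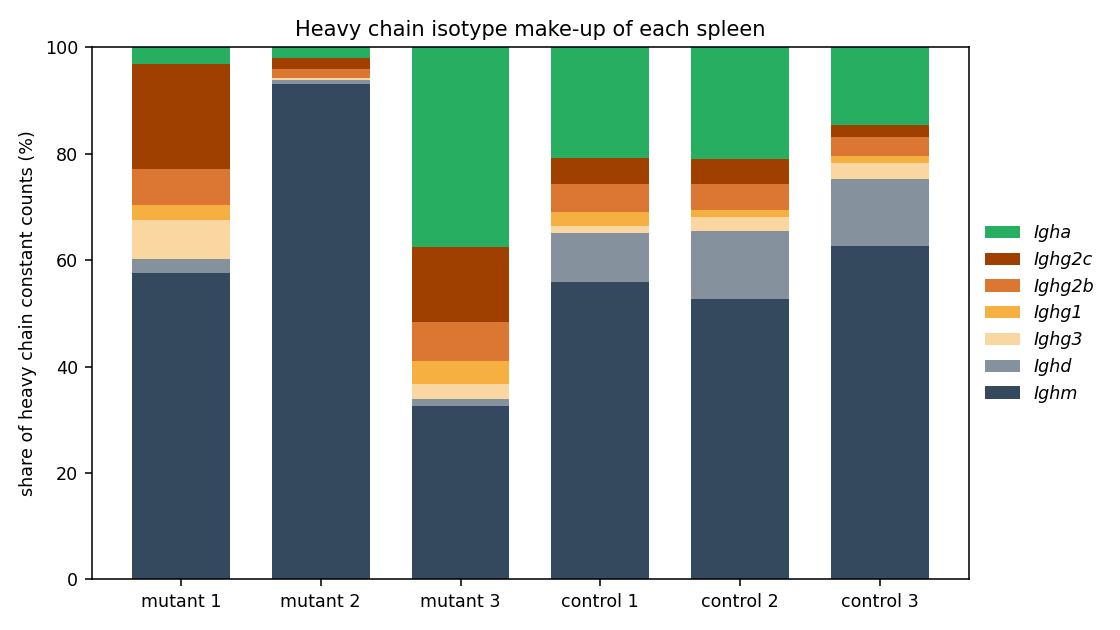
Share of each heavy chain constant gene in the summed counts of the 7 genes, in percent, as stacked bars for the 3 mutant and 3 control spleens. Counts are not scaled by exon length. The controls resemble each other, while Ighm takes 93.2% of mutant 2, Igha 37.5% of mutant 3 and Ighg2c 19.7% of mutant 1.

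The heavy chain counts behind these shares numbered 48234, 334307 and 96657 in mutants 1, 2 and 3 and 1114912 to 1236623 in controls. The 95% Wilson interval of the Ighm share was 57.1% to 58.0% in mutant 1, 93.1% to 93.2% in mutant 2 and 32.3% to 32.9% in mutant 3, and it covers counting error only. The switched share, IgG and IgA together, was 39.9%, 6.18% and 66.2% in mutants 1, 2 and 3, against 34.9%, 34.5% and 24.7% in controls 1, 2 and 3. It averaged 37.4 ± 30.1% in mutants and 31.3 ± 5.77% in controls (SD, n = 3 each, exact 2-sided permutation p = 0.7, 0.857 adjusted over the 15 comparisons). The difference of 6.08 percentage points was -8.31 without mutant 3 and 21.7 without mutant 2.

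Of the 9 shares computed, those of Ighd and Iglc2 did not overlap between the groups. Ighd made up 2.59%, 0.665% and 1.16% of heavy chain counts in mutants 1, 2 and 3, against 9.28%, 12.8% and 12.7% in controls 1, 2 and 3 (exact 2-sided permutation p = 0.1, 0.214 adjusted over the 15 comparisons). Ighg2c made up 19.7%, 2.05% and 14.1% in mutants 1, 2 and 3, against 4.95%, 4.76% and 2.33% in controls 1, 2 and 3 (exact 2-sided permutation p = 0.4). Within IgG, Ighg2c made up 53.5%, 49.3% and 49.3% in mutants 1, 2 and 3, against 35.1%, 35.1% and 23.0% in controls 1, 2 and 3, a description computed after the data were seen.

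Igkc, the constant region of kappa chains, stood at 433, 2099 and 722 CPM in mutants 1, 2 and 3, against 9134, 7688 and 7927 CPM in controls 1, 2 and 3. Mutant 2 was again the highest mutant. It fell by 2.88 ± 0.68 on the log2 scale (SE, adjusted p = 0.0454 by edgeR), and without mutant 3 or any single control it did not pass (adjusted p = 0.103 without mutant 3, and 0.149 to 0.160 without a control). Iglc2, a lambda constant region, stood at 7.68, 14.7 and 4.34 CPM in mutants 1, 2 and 3, against 471, 502 and 560.2 CPM in controls 1, 2 and 3. It fell by 5.80 ± 0.57 on the log2 scale (SE, adjusted p = 0.00656 by edgeR) and passed in all 13 alternative settings.

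Kappa and Iglc2 transcripts were out of proportion in the mutants. There were 56.4, 143 and 166 Igkc counts for 1 of Iglc2 in mutants 1, 2 and 3, against 19.4, 15.3 and 14.2 in controls 1, 2 and 3. Iglc2 was 1.01 ± 0.63% of the light chain pair in mutants and 5.87 ± 0.88% in controls (SD, n = 3 each, exact 2-sided permutation p = 0.1, 0.214 adjusted over the 15 comparisons). Counts of Igkc plus Iglc2 per heavy chain count differed little, at 0.667, 0.470 and 0.577 in mutants 1, 2 and 3, against 0.574, 0.552 and 0.603 in controls 1, 2 and 3 (exact 2-sided permutation p = 0.9). The other lambda constants are not part of this ratio, and mutant 2 had 15762 counts of Iglc1 against 1093 of Iglc2.

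The other lambda constants did not all follow Iglc2. Iglc1, which is joined to the variable segment Iglv1 in lambda 1 chains, stood at 2.74, 212 and 6.50 CPM in mutants 1, 2 and 3, against 272, 333 and 222 CPM in controls 1, 2 and 3 (log2 -1.82 ± 1.53, SE, adjusted p = 0.463 by edgeR). Mutant 2 nearly reached the lowest control for Iglc1, yet had 14.7 CPM of Iglc2 and 4.45 CPM of Iglc3. Iglc1 made up 91.7% of the 3 lambda constants in mutant 2, 22.3% in mutant 1 and 53.7% in mutant 3, against 30.0%, 32.0% and 22.8% in controls 1, 2 and 3. With Iglc1 and Iglc3 added, the lambda share was 2.75%, 9.92% and 1.65% in mutants 1, 2 and 3, against 9.03%, 11.9% and 10.9% in controls 1, 2 and 3, so that mutant 2 fell among the controls.

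**Figure D3:**
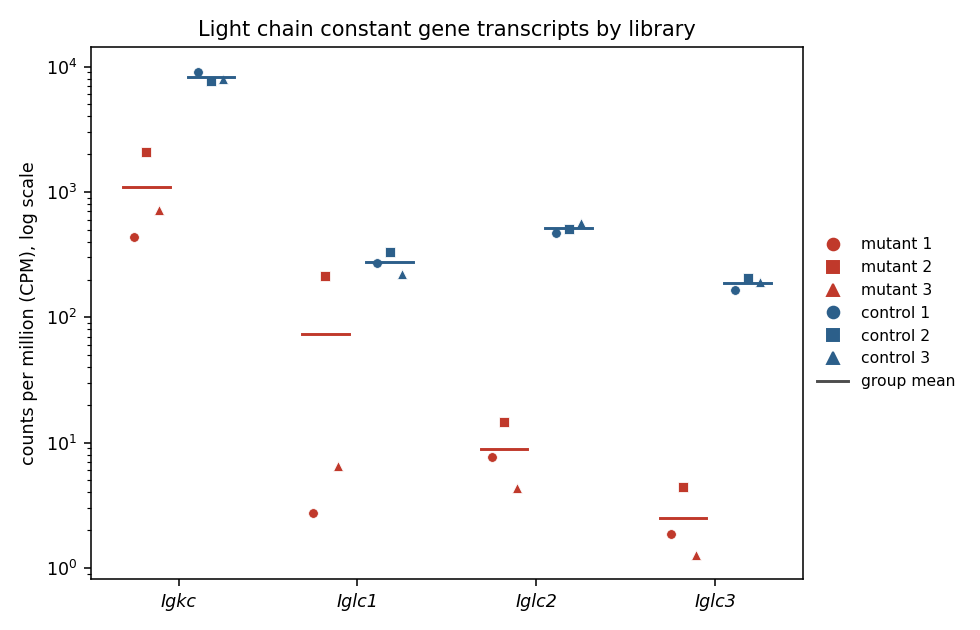
CPM on a log axis of the kappa constant Igkc and the lambda constants Iglc1, Iglc2 and Iglc3 in each library, mutants left of controls, with bars at group means. Mutant 2 (red square) stands at 212 CPM for Iglc1, near control 3 at 222 CPM, but far under the controls for Iglc2 and Iglc3.

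The variable segments of mutant 2 showed the same lean within lambda, where Iglv1 took 98.0% of lambda variable counts, against 50.6% in mutant 1, 73.3% in mutant 3 and 45.0% to 62.6% in controls. Its most abundant heavy chain segment took 13.03% of heavy variable counts, compared with 11.7% and 10.7% in mutants 1 and 3 and 4.99% to 6.97% in controls. Among kappa variable counts its most abundant segment took 9.92%, compared with 12.3% and 8.96% in mutants 1 and 3 and 8.30% to 10.6% in controls.

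Jchain stood at 27.5, 256 and 66.3 CPM in mutants 1, 2 and 3, against 1389, 1100 and 1014 CPM in controls 1, 2 and 3. The mutants followed the order of Ighm plus Igha rather than of the IgG genes, with mutant 2 the highest and mutant 1 the lowest. The log2 fold change was -3.27 ± 0.87 and did not pass (SE, adjusted p = 0.0626 by edgeR), while DESeq2 and limma-voom with sample weights called it lower (adjusted p = 0.000787 and 0.00549). Per count of Ighm and Igha, the chains that carry the cysteine codon shown above, Jchain was at 0.0685, 0.0598 and 0.0750 in mutants 1, 2 and 3, against 0.108, 0.101 and 0.0934 in controls 1, 2 and 3. All 3 mutants were below all 3 controls (log2 difference -0.58, exact 2-sided permutation p = 0.1, 0.214 adjusted over the 15 comparisons).

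All 12 genes of the B cell list passed the test as lower, and their median log2 fold change was -6.86 (0.10 over all genes tested). Among them were Fcmr, the receptor for IgM (log2 -7.36 ± 0.25, SE, adjusted p = 0.000378 by edgeR), and Ebf1, a transcription factor of B-cell identity (log2 -6.59 ± 0.25, SE, adjusted p = 0.000479). The list summed to 116, 132 and 59.0 CPM in mutants 1, 2 and 3, against 7140, 7880 and 8023 CPM in controls 1, 2 and 3. Mutant 2, which stood far above the other mutants for Ighm, was close to mutant 1 for this sum, but single genes differed. Cd79b stood at 58.2, 29.3 and 9.78 CPM in mutants 1, 2 and 3. Cd22 stood at 10.4, 36.0 and 7.39 CPM and Blnk at 3.53, 26.8 and 5.85 CPM in the same order.

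Set against this list, heavy chain transcripts were more abundant in the mutants. Cd79b was the largest part of the list sum in mutant 1. There were 5.69, 34.0 and 21.3 heavy chain counts per B cell list count in mutants 1, 2 and 3, against 2.34, 1.88 and 1.75 in controls 1, 2 and 3. The log2 ratio was higher by 3.02 in mutants than in controls, with SDs of 1.34 in mutants and 0.22 in controls (n = 3 each, exact 2-sided permutation p = 0.1, 0.214 adjusted over the 15 comparisons). For Jchain the ratio was 0.236, 1.93 and 1.12 in mutants 1, 2 and 3, against 0.195, 0.140 and 0.126 in controls 1, 2 and 3, with the same p-values. The Jchain separation depended on the denominator. With Cd79a and Cd79b alone, mutant 1 lay below all controls. It had 2004 Jchain counts against 549 of Cd79a and 4240 of Cd79b. Control 3, the lowest control by this measure, had 80350 against 83368 and 91621.

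**Figure D4:**
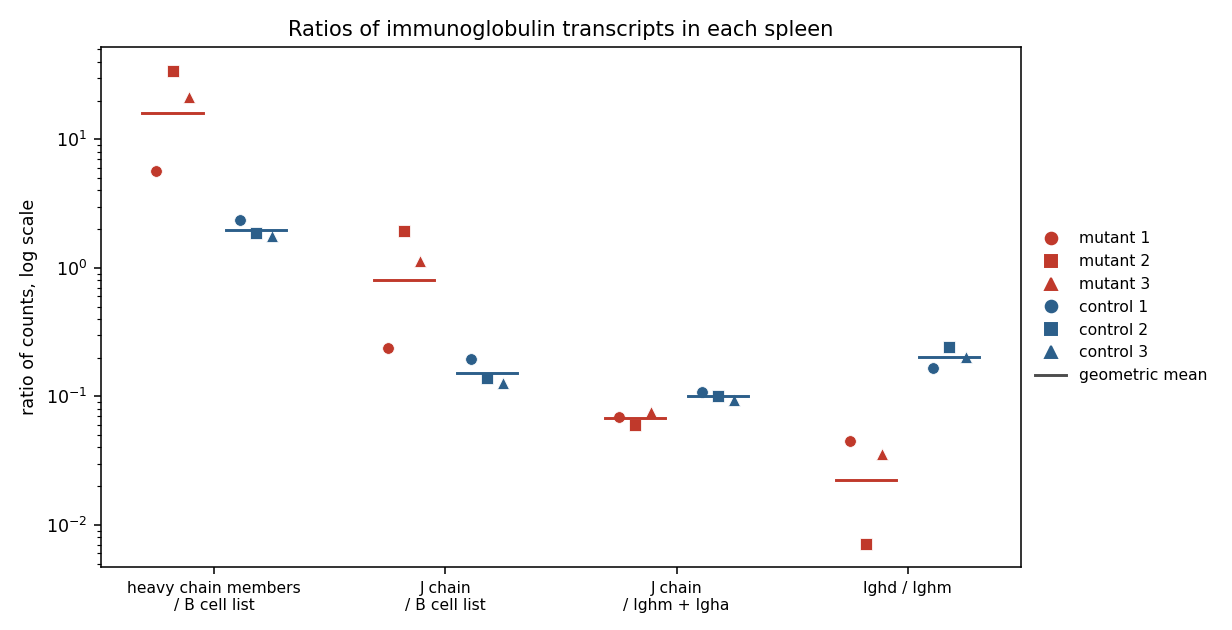
Count ratios on a log axis in each library, mutants left of controls, with bars at geometric means. Heavy chain and Jchain counts per B cell list count are higher in all 3 mutants than in the controls, while Jchain per Ighm plus Igha and Ighd per Ighm are lower. For Jchain the separation holds with the full list but not with Cd79a and Cd79b alone.

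Of the 12 genes of the plasma cell list, 5 fell (Irf4, Mzb1, Derl3, Txndc5 and Eaf2) and 7 did not pass, with a median log2 fold change of -1.50. Txndc5, which helps form disulfide bonds in secreted proteins, fell by 1.23 ± 0.18 and Mzb1, a chaperone of antibody assembly, by 4.26 ± 0.67 on the log2 scale (SE, adjusted p = 0.0152 and 0.0175 by edgeR). The list summed to 387, 446 and 462 CPM in mutants 1, 2 and 3, against 948, 863 and 886 CPM in controls 1, 2 and 3. Most of the mutant sums came from Txndc5 (137, 118 and 106 CPM) and Xbp1 (141, 156 and 186 CPM). Mzb1 stood at 3.59, 15.9 and 4.99 CPM in mutants 1, 2 and 3, against 173, 151 and 163 CPM in controls 1, 2 and 3. Each of the 12 genes had counts in every library, down to 2 counts for Tnfrsf17 in mutant 1. Sdc1, which encodes the plasma cell surface protein CD138, stood at 4.03, 9.72 and 13.1 CPM in mutants 1, 2 and 3, against 23.5, 20.5 and 17.3 CPM in controls 1, 2 and 3 (adjusted p = 0.140 by edgeR). Tnfrsf17, a survival receptor of plasma cells, stood at 0.0274, 1.43 and 0.0651 CPM in mutants 1, 2 and 3, against 4.49, 3.14 and 3.22 CPM in controls 1, 2 and 3 (adjusted p = 0.238). Mutant 2, the highest for Ighm, Igkc and Jchain, was the highest mutant for 7 of the 12 genes, mutant 3 for 4 (Sdc1, Xbp1, Ell2 and Creld2) and mutant 1 for Txndc5. The part of plasma cells in the constant gene levels was not tested.

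Among genes that act in class switching and the germinal centre, the site where activated B cells mature, 3 of 12 fell, 1 rose and 8 did not pass in edgeR (median log2 0.12). DESeq2 called 3 of the 12 lower and 4 higher, and over all 19573 genes 2809 lower and 2841 higher. Bcl6, a transcription factor of germinal centre cells, fell by 2.59 ± 0.46, and Exo1, a DNA repair exonuclease used in switching and replication, rose by 2.03 ± 0.26 on the log2 scale (SE, adjusted p = 0.0233 and 0.0114 by edgeR). Rgs13, a signalling regulator of germinal centre B cells, had 0 counts in all 3 mutants and 0.847 to 4.51 CPM in controls. Control 1 was the highest library for Rgs13 and Ighg1, and also for Ighm, Ighg2b, Ighg2c, Igha, Igkc and Jchain, but not for Ighd, Ighg3 or Iglc2.

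Of the cytokines and receptors that direct switching, 3 of 10 tested fell and 7 did not pass, with a median log2 fold change of -1.65. Those that fell were Tnfrsf13c and Tnfrsf13b, receptors of the B-cell survival factor BAFF (log2 -5.34 ± 0.57 and -2.69 ± 0.56, SE, adjusted p = 0.00751 and 0.0334 by edgeR), and Cd40lg, the T-cell ligand of CD40. Among receptors and carriers of immunoglobulin, 4 of 11 fell (Pigr, Fcmr, Fcer2a and Fcrl5) and 7 did not pass, with a median of 0.65. Fcer2a, the IgE receptor CD23 of B cells, fell by 8.13 ± 0.39 on the log2 scale (SE, adjusted p = 0.000731 by edgeR). The Fc gamma receptor gene Fcgr3 stood at 17.7, 569.6 and 38.8 CPM in mutants 1, 2 and 3, against 17.7, 25.9 and 24.8 CPM in controls 1, 2 and 3 (adjusted p = 0.160). Of the other constant and surrogate chain genes, 4 of 6 tested fell (Ighe, Iglc3, Iglc4 and Vpreb3) and 2 did not pass, with a median of -5.75. Vpreb3, a partner of the nascent B-cell receptor, fell by 5.94 ± 0.30 and Iglc3 by 6.17 ± 0.62 on the log2 scale (SE, adjusted p = 0.000769 and 0.00683 by edgeR).

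Ighe, the IgE heavy chain that lies between Ighg2c and Igha, was scarce in all libraries, with 0.0412, 0.0538 and 0.156 CPM in mutants 1, 2 and 3, against 7.08, 2.53 and 4.30 CPM in controls 1, 2 and 3. It fell past the threshold (adjusted p = 0.0123 by edgeR), with 3, 4 and 12 counts in mutants 1, 2 and 3.

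Levels can be compared between genes only per length, here as CPM per kilobase of annotated exon. In the mutants Igkc averaged 2039 ± 1673, Ighm 880 ± 1161, Ighg2c 101 ± 32.5 and Igha 73.0 ± 91.1 CPM per kilobase (SD, n = 3). Igkc was above Ighm in each mutant although their ranges overlapped, and from Ighg2c down each gene's range overlapped that of the next. Genes further apart in that order could still be clear of each other: Ighg2c, at 69.4 to 134 CPM per kilobase, lay above all values of Ighg2b, Iglc2, Ighg3, Ighd and Ighg1. In the controls the order was Igkc at 15507 ± 1456, Ighm at 4591 ± 409, then Igha at 1077 ± 279, Ighd at 918 ± 91.1 and Iglc2 at 835 ± 74.3 CPM per kilobase, of which the last 3 overlapped. Ighg2c at 468 ± 196 overlapped Jchain at 464 ± 78.2, followed by Ighg2b at 260 ± 73.1, and Ighg3 at 132 ± 46.1 overlapped Ighg1 at 109 ± 55.3. Ighd had rank 8 of 10 in mutants 1 and 2 and rank 9 in mutant 3, against rank 4 in the control mean. Ighg2c had rank 3 in mutant 1 and rank 4 in mutants 2 and 3, against rank 6 in the control mean. Its place in these orders rests on an annotated exon length of 1326 bases, against 2512 to 2678 for the other IgG genes. The coding parts of the IgG genes are alike in length, at 971 to 1007 bases. In CPM, Ighg2c averaged 621 in controls, below Ighg2b at 697. Its lowest mutant value of 92.1 CPM was close to the highest of Ighg2b, 91.1 CPM.

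Genes whose profile over the 6 libraries lay closest were found from centred log2 CPM, by the root mean square difference, as a description over 15128 candidate genes. Nearest to Ighm were Kbtbd11, Ildr1, Myo3b, Klrb1 and Col8a2, with differences of 0.12 to 0.21 on the log2 scale, and Kbtbd11 stood at 6.09, 57.9 and 6.96 CPM in mutants 1, 2 and 3, against 125, 116 and 125 CPM in controls 1, 2 and 3. Nearest to Igha were Cacna1e, Edaradd, Pacsin1, Scd1 and Sit1, at 0.36 to 0.66, of which all but Sit1 fell past the threshold (adjusted p = 0.0199 to 0.0490 by edgeR). Nearest to Jchain were Olfr101, Cd247, Snph, St6gal1 and Unc5c, at 0.19 to 0.25, of which Cd247, St6gal1 and Unc5c fell past the threshold (log2 -3.32, -3.70 and -3.59, adjusted p = 0.0364, 0.0374 and 0.0494 by edgeR). Cd247 encodes a signalling chain of the T-cell receptor and St6gal1 a sialyltransferase that modifies glycoproteins. Of these genes Klrb1, Olfr101, Myo3b and Snph were under 2 CPM in every library.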

How the data were processed

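Total RNA of frozen spleen pieces was isolated and 50 ng of each was made into stranded poly-A libraries, per the labels. Whole-number counts per Ensembl gene, not normalized, are what the authors deposited. The submitters' processing notes name STAR 2.5.3a, mm10, GRCm38 and limma. The annotation, the strand setting and the handling of reads with several matches are not given there.

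Of 31771 identifiers 31669 matched a symbol. All genes were fitted in edgeR 4.0.16 (R 4.3.3) with TMM factors, filterByExpr and the robust quasi-likelihood test, without covariates. SE is the log2 fold change over the square root of F. CPM used deposited library totals. Exact 2-sided permutation tests of shares and ratios have a smallest p of 0.1 here and were adjusted over 15. Exonic lengths and transcripts came from GENCODE M21. Profiles were compared as TMM-scaled log2 CPM (prior count 2). The procedure was run on simulated data with the same spread in both groups. The mutants here varied far more than the controls, so that run cannot tell how the calls behave with such unequal spread. Replicates are numbered in accession order.

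Alternatives were other factors and filters, DESeq2 1.42.0, limma-voom (limma 3.58.1) with sample weights, immunoglobulin genes left out of library sizes, per-kilobase shares, wider isotype sets, another B-cell denominator and each library left out. The 10 genes and 13 other lists (119 of 120 genes found) were chosen with earlier results of these data known. The text names, beyond the 10, the 2 genes of smallest p per list, genes a result turns on, and 5 nearest profiles each for Ighm, Igha and Jchain, without receptor segments, predicted, Y-linked or unnamed genes or Xist. Other list members, Fcgr3 and the variable segments were named after their values were seen. A further gene of the class switching list is counted but not reported here.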

Additional observations from a re-analysis of the deposited data

How the results depend on the processing

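All 10 genes kept a negative log2 fold change in all 13 alternatives. Ighd and Iglc2 passed in 13 of 13, Ighg2b in 11, Ighg2c, Ighg3 and Igkc in 9 each, Igha in 4, Ighg1 and Jchain in 3 each and Ighm in 2. The number of the 10 called lower was 2 to 9 with a library left out. Over all genes, leaving out a library gave 4 to 2794 higher and 119 to 3137 lower, the lowest when a control was left out. DESeq2 called 2841 higher and 2809 lower, and limma-voom with sample weights 1842 higher, against 995 and 1351 in the reported test. The 7 genes lower by limma-voom were Ighm, Ighd, Ighg2b, Igha, Igkc, Iglc2 and Jchain. The lambda share difference, -4.86 percentage points, was -5.85 with Iglc1 and Iglc3 added. The other shares, ratios and sums moved by less than 1 SD of the more variable group, but 7 of 15 changed sign with a library left out. The difference in percentage points then ranged from -12.0 to 18.3 for Ighm, -16.1 to 1.61 for Igha, -8.31 to 21.7 for switched genes, -0.588 to 2.97 for Ighg3, -0.412 to 1.70 for Ighg1 and -0.248 to 2.53 for Ighg2b. The log2 ratio of Igkc plus Iglc2 to heavy chains ranged from -0.15 to 0.11. Shares cannot pass with 3 against 3. No paired analysis was possible because the labels give the animals no shared numbers.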

Other observations

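Of 6 early B lineage genes tested, 2 fell (Rag1 and Il7r), 1 rose and 3 did not pass, with a median log2 fold change of -0.16. Cd93, a surface protein of immature B cells, progenitors and endothelium, rose to 188, 157 and 72.0 CPM in mutants 1, 2 and 3, against 30.6, 33.6 and 29.9 CPM in controls 1, 2 and 3 (log2 2.17 ± 0.39, SE, adjusted p = 0.0234 by edgeR), and Rag1, which opens receptor genes for joining, fell by 3.72 ± 0.69 on the log2 scale (SE, adjusted p = 0.0256). Igll1 and Rag2 were too low to be tested.

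In the T cell list 1 of 8 genes fell in edgeR, with a median of -3.63, and 7 fell in DESeq2 and 8 in limma-voom with sample weights. The smallest p belonged to Lck, a kinase of T-cell receptor signalling (log2 -3.17 ± 0.37, SE, adjusted p = 0.00907 by edgeR), and then to Trac, the constant region of the receptor alpha chain (log2 -3.37 ± 0.83, adjusted p = 0.0505). In the dendritic cell list 1 of 8 fell in edgeR, with a median of -1.91, and 3 fell in DESeq2 and 7 in limma-voom. Clec9a, a receptor of dendritic cells that take up dead cells, fell by 2.23 ± 0.46 on the log2 scale (SE, adjusted p = 0.0326 by edgeR), and Cd209a had a log2 fold change of -4.19 ± 1.19 (adjusted p = 0.0726).

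In the neutrophil list 3 of 8 rose in edgeR (Mpo, Ctsg and Prtn3), with a median of 2.62, and 5 rose in DESeq2 and 4 in limma-voom. Over all 19573 genes edgeR called 995 higher, DESeq2 2841 and limma-voom 1842. Ctsg and Mpo, which encode granule enzymes of the neutrophil lineage, rose by 4.05 ± 0.45 and 2.95 ± 0.57 on the log2 scale (SE, adjusted p = 0.00841 and 0.0281 by edgeR). In the progenitor list 1 of 8 fell in edgeR, with a median of 1.54, while DESeq2 called 3 higher and 2 lower and limma-voom 3 higher and 1 lower. Mecom, a transcription factor of stem cells, had a log2 fold change of -1.74 ± 0.38 and Gata2, another such factor, of 3.70 ± 1.02 (SE, adjusted p = 0.0378 and 0.0676 by edgeR). In the erythroid list 1 of 8 rose in edgeR, with a median of 1.69, while DESeq2 called 4 higher and limma-voom 1 higher and 1 lower. Epor, the erythropoietin receptor, had a log2 fold change of 2.25 ± 0.55 and Tfrc, the transferrin receptor, of 1.94 ± 0.54 (SE, adjusted p = 0.0499 and 0.0682 by edgeR). The globin gene Hbb-bs of this list lay the other way, at 2443, 29734 and 844 CPM in mutants 1, 2 and 3, against 61514, 59136 and 38782 CPM in controls 1, 2 and 3. The other 7 genes summed to 814, 6649 and 2206 CPM in mutants 1, 2 and 3, against 2422, 2442 and 1384 CPM in controls 1, 2 and 3, with the groups overlapping.

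In the monocyte and macrophage list 0 of 8 passed in edgeR, DESeq2 or limma-voom, and 1 had an unadjusted p under 0.05 in edgeR and 1 in DESeq2. The median was 1.12, with Cd14 at 2.96 ± 1.12 and Cd163 at 1.89 ± 0.83 on the log2 scale (SE, adjusted p = 0.136 and 0.1799 by edgeR). The list summed to 360, 8839 and 1009 CPM in mutants 1, 2 and 3, against 1564, 1727 and 2136 CPM in controls 1, 2 and 3. Mutant 2, the highest mutant for Ighm, Igkc and Jchain, was thus the highest mutant for this list. The T cell list stood at 307 CPM in mutant 2, against 38.5 and 25.1 CPM in mutants 1 and 3. Mutant 2 was also highest for the erythroid, neutrophil, dendritic cell, B cell, immunoglobulin receptor and other constant chain lists. It was not the highest mutant for the plasma cell, class switching, switch cytokine, early B lineage and progenitor lists. The part of these cell types in the constant gene levels was not tested.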
